A study of Mus musculus with 8 samples.

Results

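Small RNA was compared between Hepa 1-6, a hepatoma (liver tumour) cell line of the mouse, and primary mouse hepatocytes, the main cells of the liver. The comparison covered 453 sequences, 357 of them tRNA and 96 snoRNA, which were all the sequences listed for both cell types out of 489 listed for either. The largest contrasts were between individual RNAs of the same kind. Snord12 made up 40.6% of the snoRNA counts in Hepa cells and 0.994% in hepatocytes, whereas Snord55 made up 3.12% in Hepa cells and 40.6% in hepatocytes. Among tRNAs, the Asp and Thr families took 27.4% and 10.9% of the counts in Hepa cells against 3.14% and 0.530% in hepatocytes, while the Ala and Arg families took 15.2% and 16.6% in hepatocytes against 0.383% and 1.33% in Hepa cells.

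SnoRNAs are short nuclear RNAs, most of which are cut from the introns of other genes, and they guide the chemical modification of ribosomal and spliceosomal RNA. Box C/D snoRNAs (Snord names) guide the methylation of ribose and box H/ACA snoRNAs (Snora names) guide the conversion of uridine to pseudouridine, while a few take part in cutting the ribosomal precursor. Transfer RNAs carry amino acids to the ribosome, and each amino acid has a family of tRNA genes that differ in their anticodon and in the rest of their sequence; the genes are transcribed by RNA polymerase III, and many of them exist as identical or near-identical copies.

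The Hepa 1.6 control cells, as the labels spell the line, were grown in DMEM with 10% FCS and transduced 5 days before collection. The labels call the vector a control shRNA plasmid and the study's methods an empty pLKO vector, with puromycin selection. The wild-type hepatocytes were processed directly once purified, with no culture. Age, strain and sex of the mice, and the number of mice behind a library, were not given in the sources used here. Each cell type also had 1 library in which the co-repressor Kap1 was depleted, by shRNA in Hepa cells (Kap1 KD) and by gene knock-out in hepatocytes (Kap1 KO; the Cre driver was not given in the sources used here), and these 2 libraries served as a second pair beside the first.

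Each group had 1 library, so no difference between the cell types has a replicate check, no p-value was computed, and every interval below is an exact 95% interval that covers counting error only. The labels give the Ribo-zero kit for rRNA removal from Hepa cells and the GeneRead kit for hepatocytes. The cell type, the kit, the culture and the run therefore cannot be told apart in any value below. The tables held 26249204 counts in control Hepa cells and 3028467 in wild-type hepatocytes, 8.67 times fewer. They list tRNA and snoRNA only, so these totals are not the depth of the libraries, and no hepatocyte marker could be read from them. A share is the percent of the counts of a class (tRNA or snoRNA) in 1 library, and a log2 ratio is the log2 of the share in Hepa cells over that in hepatocytes after 0.5 was added to each count. A sequence was counted as past 2-fold only if it had at least 100 counts over both libraries.

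Sequences are shown for the snoRNAs on which the results turn. Of the 96 snoRNAs, 85 were found by name and length in the annotation of the mm9 mouse genome, and their sequences were read from that genome on the strand of the RNA, 5′ to 3′. Capitals mark the first TGATG within the first 20 bases (the core of the C box) and the last CTGA within the last 20 bases (the D box) of a box C/D snoRNA, and the last ACA within the last 10 bases of a box H/ACA snoRNA. Only the strand of the RNA was searched and the motifs did not overlap. Of the 53 box C/D snoRNAs found, 46 (86.8%) held this C box core and 52 (98.1%) the D box, and 29 of the 32 box H/ACA snoRNAs (90.6%) held the ACA.

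The first set holds box C/D snoRNAs with a larger share in Hepa cells. Snord12 lies at chr2:166890776-166890865 on the plus strand in Zfas1 (named 1500012F01Rik in that annotation), Snord83b at chr15:79908928-79909021 on the minus strand in an intron of Rpl3, Snord49a at chr11:62416952-62417023 and Snord65 at chr11:62418017-62418088 on the plus strand in introns of 2410006H16Rik, Snord110 at chr2:130101242-130101309 on the plus strand in an intron of Nop56, and Snord91a at chr11:74718926-74719018 on the plus strand in an intron of Tsr1.
Snord12: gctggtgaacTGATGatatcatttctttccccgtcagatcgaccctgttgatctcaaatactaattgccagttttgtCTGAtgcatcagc
Snord83b: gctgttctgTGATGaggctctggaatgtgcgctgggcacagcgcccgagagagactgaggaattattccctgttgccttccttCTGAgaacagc
Snord49a: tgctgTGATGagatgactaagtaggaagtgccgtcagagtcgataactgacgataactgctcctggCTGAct
Snord110: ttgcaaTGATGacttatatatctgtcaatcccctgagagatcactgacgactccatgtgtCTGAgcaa
Snord91a: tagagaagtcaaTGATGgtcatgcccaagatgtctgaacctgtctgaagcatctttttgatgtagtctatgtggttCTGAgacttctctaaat
Snord65: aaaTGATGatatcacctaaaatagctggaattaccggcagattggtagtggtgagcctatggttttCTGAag

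The second set holds 2 pairs of snoRNAs that share a number and a host gene but differed in their ratio between the cell types. Not every such pair differed: Snord45b and Snord45c of Rabggtb, which are not shown, had similar log2 ratios (1.69 and 1.56). Snord1b, at chr11:116535462-116535536, and Snord1a, at chr11:116535912-116535985, lie on the plus strand in Snhg16. Snord42a, at chr11:77994801-77994865, and Snord42b, at chr11:77996558-77996626, lie on the minus strand in Rpl23a. Without gaps, Snord1a and Snord1b were identical at 32 of 74 aligned bases (43.2%) and Snord42a and Snord42b at 34 of 65 (52.3%), so the members of a pair are distinct RNAs.
Snord1b: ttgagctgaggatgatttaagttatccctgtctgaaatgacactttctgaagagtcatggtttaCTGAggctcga
Snord1a: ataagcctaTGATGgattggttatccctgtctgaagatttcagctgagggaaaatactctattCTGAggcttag
Snord42a: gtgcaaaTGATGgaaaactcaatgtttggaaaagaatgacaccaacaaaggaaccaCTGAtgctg
Snord42b: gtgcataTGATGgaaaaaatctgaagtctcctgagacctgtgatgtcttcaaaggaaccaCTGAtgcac

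The third set holds snoRNAs with a larger share in hepatocytes. Snord99, at chr4:131866606-131866679, and Snora16a, at chr4:131865380-131865515, lie on the plus strand in Snhg12, and Snord47, at chr1:162968213-162968289, on the plus strand in Gas5. Snora65, at chr2:32818811-32818940 on the plus strand, lies in Rpl12, and Snora69, at chrX:34622907-34623037 on the minus strand, in an intron of Rpl39. Snord64, at chr7:67123694-67123760 on the minus strand, had no host gene in the mm9 annotation and lies within Snhg14 in the RefSeq gene table of the later mouse assembly GRCm38.p6, which was used only for gene names and neighbours. Of the RNAs printed, Snord12, Snord1a, Snord1b, Snord99, Snord47, Snord42b and Snora65 overlap an annotated exon of a host transcript in mm9, and Snora16a and Snord42a lie in introns. Snord55 and Snord53 had no entry of that name there, and no sequence is printed for them.
Snord99: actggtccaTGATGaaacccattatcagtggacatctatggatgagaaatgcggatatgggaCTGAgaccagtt
Snord47: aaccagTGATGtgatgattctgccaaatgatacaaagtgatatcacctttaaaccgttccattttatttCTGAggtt
Snord64: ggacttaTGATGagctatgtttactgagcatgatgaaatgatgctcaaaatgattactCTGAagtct
Snora16a: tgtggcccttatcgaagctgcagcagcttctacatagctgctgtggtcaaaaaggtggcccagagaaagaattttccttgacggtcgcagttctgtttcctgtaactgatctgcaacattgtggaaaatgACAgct
Snora65: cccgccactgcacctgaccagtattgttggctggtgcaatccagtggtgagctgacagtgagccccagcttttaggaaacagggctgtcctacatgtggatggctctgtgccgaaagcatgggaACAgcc
Snora69: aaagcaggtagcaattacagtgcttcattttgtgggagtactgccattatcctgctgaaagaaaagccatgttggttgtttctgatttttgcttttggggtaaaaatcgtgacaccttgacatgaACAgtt

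SnoRNA counts were dominated by a handful of RNAs in both cell types, but not by the same ones. The highest snoRNA held 40.6% of the class in both libraries, the top 5 held 77.8% in Hepa cells and 75.9% in hepatocytes, and 12 and 14 RNAs respectively made up 90%. Of the top 5, Snord49a and Snord55 were common to both cell types, and of the top 20, 15 were. Over the 91 snoRNAs with at least 100 counts, Spearman's rho of the ranks was 0.79 between the cell types, given as a description because sequences are not replicates. It was 0.99 between the 2 Hepa libraries (90 snoRNAs) and 0.96 between the 2 hepatocyte libraries (95 snoRNAs), with the minimum applied to each pair.

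**Figure D1:**
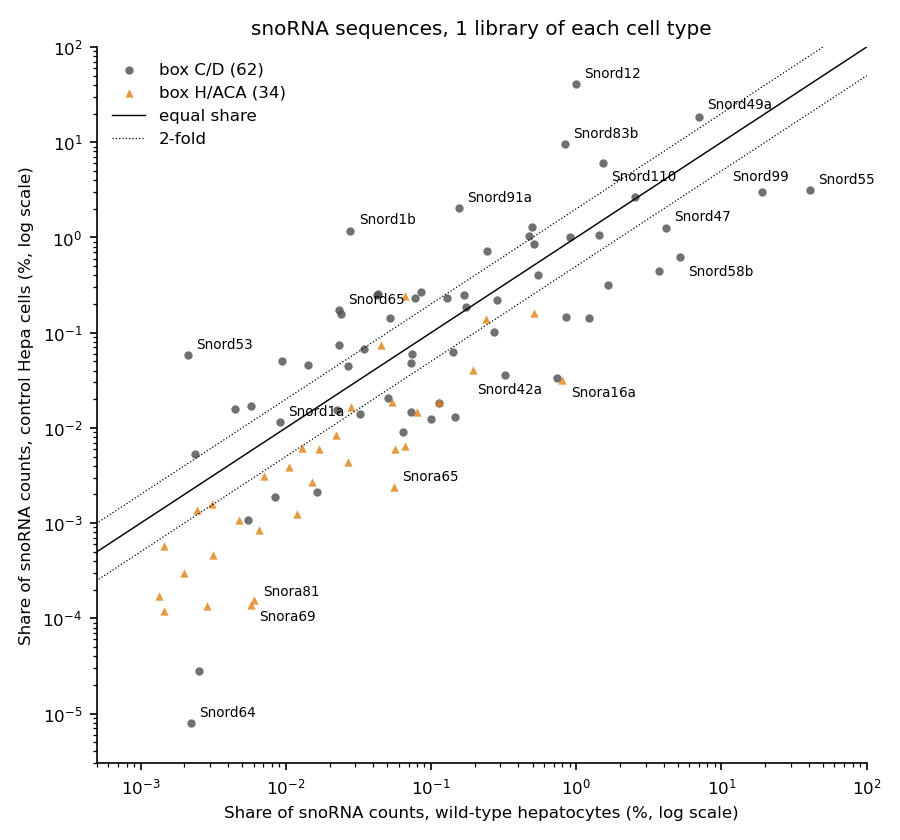
Share of each of the 96 snoRNAs in wild-type hepatocytes (x axis) and control Hepa cells (y axis), in percent of the snoRNA counts of the library on log scales; circles are box C/D and triangles box H/ACA snoRNAs. Snord12 (40.6% against 0.994%) lies far above the line of equal share and Snord55 (3.12% against 40.6%) far below it, and most triangles lie below the line.

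Snord12 led the Hepa library with 10229138 counts, and its 29654 counts in hepatocytes placed it at rank 12 there. The ratio was 40.8-fold (log2 5.35, interval 5.34 to 5.37). In the Kap1-depleted libraries it had 45.3% of snoRNA counts in Hepa cells and 3.26% in hepatocytes, so both Hepa libraries lay above both hepatocyte libraries, but the 2 hepatocyte libraries differed by 1.71 on the log2 scale. Zfas1, the gene around Snord12, is a noncoding RNA gene known as a host of box C/D snoRNAs.

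Snord83b, from an intron of the ribosomal protein gene Rpl3, was at rank 3 in Hepa cells with 2413242 counts (9.58%) and at rank 15 in hepatocytes with 24866 (0.834%). Its share was 11.5-fold higher in Hepa cells (log2 3.52). Snord49a was at rank 2 in Hepa cells (4630544 counts, 18.4%) and at rank 3 in hepatocytes (208763 counts), 2.63-fold higher in Hepa cells. When counts were divided by the length of the RNA, Snord12 still led in Hepa cells, with 36.7% of the snoRNA counts per base, and Snord55 in hepatocytes, with 39.3%. The same 4 RNAs held the top ranks per length as by counts in each cell type. Snord110, from an intron of Nop56, which encodes a core protein of box C/D particles, took 6.12% in Hepa cells and 1.53% in hepatocytes (4.0-fold).

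Beyond the most abundant RNAs, the ratio was largest for Snord1b, with 297817 counts (1.18%) in Hepa cells and 830 (0.0278%) in hepatocytes, a 42.5-fold difference (log2 5.41, interval 5.31 to 5.51). Snord53 followed with 14722 and 63 counts (27.5-fold, log2 4.78, interval 4.43 to 5.17). The Kap1 KO hepatocytes held 469 Snord53 counts, so the hepatocyte level differed by 1.01 on the log2 scale between the libraries of that cell type. Snord91a, from an intron of the ribosome assembly gene Tsr1, had 2.02% and 0.155% (13.0-fold), and Snord65 had 0.173% and 0.0234% (7.38-fold). In each of these 4, both Hepa libraries had the larger share.

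Snord55 led the hepatocyte library with 1211013 counts, 40.6% of the class, and was at rank 5 in Hepa cells with 785825 counts, 3.12%. Its share was 13.0-fold lower in Hepa cells (log2 -3.70, interval -3.71 to -3.70), and in the Kap1-depleted pair it was 2.52% and 42.8%. Snord99 was at rank 2 in hepatocytes with 18.9% and at rank 6 in Hepa cells with 3.02% (6.28-fold lower in Hepa cells). Snord58b, within Rpl17, had 5.18% in hepatocytes and 0.627% in Hepa cells (8.27-fold lower), and Snord47, the only snoRNA of Gas5 analysed here, had 4.16% and 1.27% (3.28-fold lower).

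Of the 6 largest ratios in the direction of hepatocytes, among RNAs with at least 100 counts in 1 library, 4 belonged to box H/ACA snoRNAs. Snora69 had 35 counts in Hepa cells and 171 in hepatocytes, and its share was 40.8-fold lower in Hepa cells (log2 -5.35, interval -5.94 to -4.84), the Hepa table holding more snoRNA counts in all. Snora81, from Eif4a2, had 39 and 181 counts (log2 -5.28, interval -5.83 to -4.79). Snora16a had 7962 and 23972 counts, or 0.0316% and 0.804% (25.4-fold lower). Snora65 was 23.2-fold lower in Hepa cells in this pair (log2 -4.54) and -2.80 on the log2 scale in the Kap1-depleted pair. Snord42a was the box C/D snoRNA beside Snord55 among these 6, with 0.0338% in Hepa cells and 0.732% in hepatocytes (21.7-fold lower).

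Counted over all 91 snoRNAs, 24 (26.4%) had a share at least 2-fold higher in Hepa cells and 47 (51.6%) at least 2-fold lower. These counts depend on the scaling. The median log2 ratio of shares was -1.17. With median-of-ratios scaling, which sets the typical RNA to no difference, 34 were higher and 32 lower. Under each of 5 scalings, 24 were at least 2-fold higher and 32 at least 2-fold lower. The alternative scalings raised the snoRNA ratios or lowered them by only 0.037 on the log2 scale, so the 24 could hardly become fewer.

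The 2 kinds of snoRNA differed. The gap between their medians is the same under every scaling, because each scaling shifts all snoRNAs together, but the counts past 2-fold change. Of 60 box C/D snoRNAs, 23 were at least 2-fold higher in Hepa cells and 22 at least 2-fold lower, with a median log2 ratio of 0.11. Of 31 box H/ACA snoRNAs, 1 was higher (Snora52, log2 1.87) and 25 were lower, with a median of -2.26. The medians thus lay 2.37 apart, or 5.16-fold, and 1.64 apart in the Kap1-depleted pair. With median-of-ratios scaling, 2 box H/ACA snoRNAs were higher and 16 lower, against 32 and 16 box C/D snoRNAs. As a share of all snoRNA counts, box H/ACA took 0.816% in Hepa cells and 2.48% in hepatocytes, and 0.623% and 1.03% in the Kap1 KD and Kap1 KO libraries. Box C/D therefore took 99.18% (interval 99.18% to 99.19%) in Hepa cells and 97.52% (97.50% to 97.54%) in hepatocytes. Box H/ACA RNAs were also longer, with a median listed length without flanks of 131 bases against 79. The RNAs found in mm9 were 1 base longer there than this listed length. Over all 91 snoRNAs, the log2 ratio had a rho of -0.35 with length, and -0.28 in the Kap1-depleted pair. Within each kind, the rho with length was -0.17 for box H/ACA and -0.0029 for box C/D, and -0.31 and 0.021 in the Kap1-depleted pair. With GC content it was -0.13 for box C/D. Whether length plays a part in the difference between the kinds was not tested.

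SnoRNAs cut from the same host gene often had different ratios. Of the 96 snoRNAs, 95 lie within a longer gene in the RefSeq table, and 16 host genes were compared that held 2 or more of the 91 RNAs, 38 in all. The median range of log2 ratios within a host gene was 2.51, or 5.70-fold. It was 0.51 between the 2 Hepa libraries and 0.75 between the 2 hepatocyte libraries for the same RNAs. This range does not depend on the scaling, because all RNAs of a host shift together. The log2 ratios of all 91 snoRNAs had a standard deviation of 2.40, and the range among snoRNAs of different hosts was not computed. Some hosts, such as Snhg12 and Eif4a2, hold both kinds of snoRNA.

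**Figure D2:**
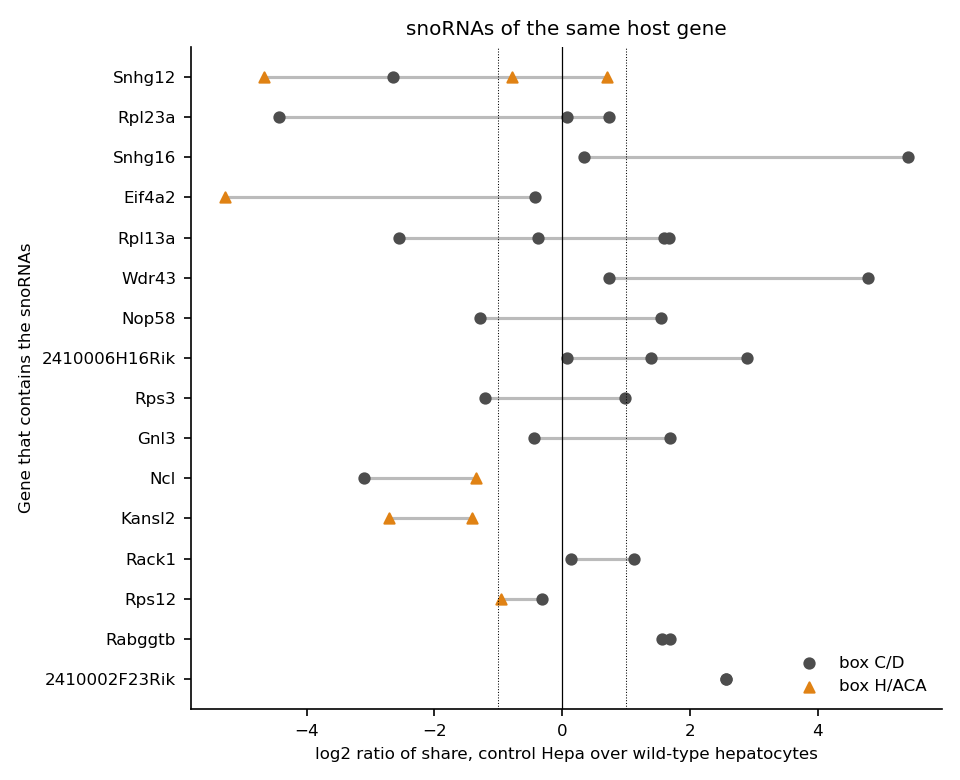
Log2 ratio of the share in control Hepa cells over wild-type hepatocytes (x axis) for the snoRNAs of each of 16 host genes (y axis) with 2 or more; circles are box C/D and triangles box H/ACA, the solid line marks an equal share and dotted lines a 2-fold difference. The grey bars, which span the RNAs of 1 gene, are longest for Snhg12 (-4.67 to 0.71) and Rpl23a (-4.44 to 0.73) and shortest for 2410002F23Rik.

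Snhg12, a noncoding host gene, had the widest range. Its Snora16a stood at -4.67 and Snord99 at -2.65, while Snora61 stood at -0.78 and Snora44 at 0.71. In Rpl23a, Snord42a stood at -4.44 with 8505 counts in Hepa cells and 21833 in hepatocytes, whereas Snord42b stood at 0.08 with 46521 and 5221 counts and Snord4a at 0.73. In Nop58, which encodes a core protein of box C/D particles, Snord70 stood at -1.29 and Snord11 at 1.55. In Snhg16, Snord1b stood at 5.41 and Snord1a, with 2885 and 270 counts, at 0.34. Wdr43 held Snord53 at 4.78 and Snord92 at 0.73.

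Rpl13a, a ribosomal protein gene known for its 4 intronic box C/D snoRNAs, held all of them in these tables. Snord32a was lower in Hepa cells (0.145% against 0.851%, log2 -2.56), Snord33 was close to equal (0.220% against 0.285%, log2 -0.38), and Snord34 and Snord35a were higher (log2 1.59 and 1.67). Snord35a, Snord53 and Snord104 served in the study as RT-qPCR references for Kap1 knock-down against control Hepa cells. Between those 2 Hepa libraries their log2 ratios of share, Kap1 KD over control, were 0.15, 0.30 and -0.59. Between the cell types, for which the study does not describe their use, the log2 ratios were 1.67, 4.78 and -3.06. The 3 thus differed in direction between the cell types, under each of 5 scalings. Snord88a and Snord88c, which are 94.4% identical, had 63596 and 62701 counts in Hepa cells and 1278 and 1259 in hepatocytes; reads of one cannot be told from reads of the other with certainty, and their equal values (both 2.56) are not 2 observations.

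Some lists had few members here. Snord22, which takes part in cutting ribosomal precursor RNA and is hosted by Snhg1, was the only processing snoRNA analysed, at 0.0620% in Hepa cells and 0.141% in hepatocytes (log2 -1.18), and it was -0.04 in the Kap1-depleted pair. Snord64 was the only imprinted snoRNA analysed. It had 2 counts in control and 0 in Kap1 KD Hepa cells, and 66 and 188 in wild-type and Kap1 KO hepatocytes. Its log2 ratio was -7.81 (interval -11.2 to -6.21), and a count of 0 in Kap1 KD Hepa cells allows a share of up to 1.05e-05%. SNORD123, chosen after its values were seen, followed a similar course with 7 and 3 counts in Hepa cells and 75 and 377 in hepatocytes. Small Cajal body RNAs and the snoRNAs of Rpl7a are not analysed here.

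tRNA made up a small part of the counts in both cell types. It took 4.03% of the tRNA and snoRNA counts in Hepa cells (interval 4.03% to 4.04%) and 1.54% in hepatocytes (1.53% to 1.55%), a ratio of 2.62. In the Kap1-depleted libraries it took 2.24% and 0.648%, a ratio of 3.45. Libraries of 1 cell type differed as well, and the shares of Kap1 KD Hepa cells and wild-type hepatocytes were the closest across the cell types. In numbers, 1059106 tRNA counts stood behind the Hepa shares and 46617 behind the hepatocyte shares. Of the 357 tRNA sequences, 9 had no count in Hepa cells and 31 none in hepatocytes, where a count of 0 allows a share of up to 0.00644%.

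tRNA counts were more concentrated in Hepa cells than in hepatocytes. The top 5 of the 357 sequences held 60.7% of tRNA counts in Hepa cells and 32.1% in hepatocytes, and the top 10 held 77.1% and 42.4%. In Hepa cells 21 sequences made up 90% of the counts, whereas hepatocytes needed 93. The Kap1 KD Hepa library had the same number as its control, 21, and the Kap1 KO hepatocytes had 79. The top 5 held 57.9% in Kap1 KD Hepa cells and 43.25% in Kap1 KO hepatocytes, and the top 10 held 76.9% and 55.2%. The 2 hepatocyte libraries thus also differed in concentration.

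**Figure D3:**
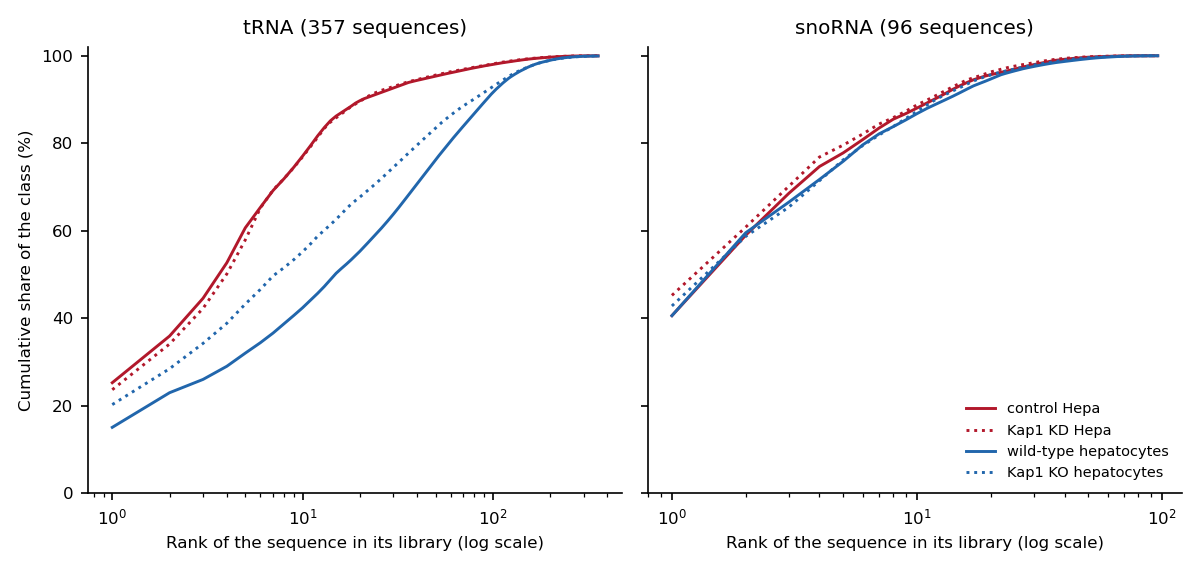
Cumulative share of counts (y axis, percent) over sequences ordered by rank in their own library (x axis, log scale), for tRNA (left) and snoRNA (right); solid lines are the control and wild-type libraries and dotted lines the Kap1-depleted ones. For tRNA the red Hepa lines reach 60.7% at rank 5 in control cells, above the blue hepatocyte lines at 32.1% in wild-type cells, while the 4 snoRNA lines nearly coincide.

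Among sequences with at least 100 counts, the order of tRNA sequences differed far more between the cell types than the order of snoRNAs. Over 204 tRNA sequences with at least 100 counts, rho was 0.23. It was 0.95 between the 2 Hepa libraries (208 sequences) and 0.81 between the 2 hepatocyte libraries (131 sequences). The minimum was applied to each pair, so these sets differ. None of the top 5 sequences and 2 of the top 20 were common to both cell types, chr16.tRNA267-LysCTT and chr2.tRNA1432-HisGTG, while 18 and 17 of the top 20 were shared within Hepa cells and within hepatocytes. The rho between the cell types depends on the minimum. With at least 1 count it was 0.72 over 353 tRNA sequences and 0.82 over 96 snoRNAs, which are closer values. Of the 204, 33 sequences (16.2%) had a share at least 2-fold higher in Hepa cells and 132 (64.7%) at least 2-fold lower. The median log2 ratio was -1.63. With median-of-ratios scaling 72 were higher and 69 lower, and under each of 5 scalings 33 were higher and 67 lower. Every alternative scaling raised the tRNA ratios, so the 33 could not become fewer.

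Summed by amino acid, 7 of 21 families with at least 100 counts (33.3%) had a share at least 2-fold higher in Hepa cells and 10 (47.6%) at least 2-fold lower. The largest difference between the 2 Hepa libraries was 0.45 on the log2 scale (Phe), and between the 2 hepatocyte libraries 1.38 (SeC). Under all 5 scalings, 8 families stayed higher in Hepa cells and 7 lower, and the other 6 (Val, Lys, Leu, Ile, Phe and Gly) turned from lower to higher under at least 1 of them. A family higher by share could not turn, because every alternative scaling raised the tRNA ratios.

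**Figure D4:**
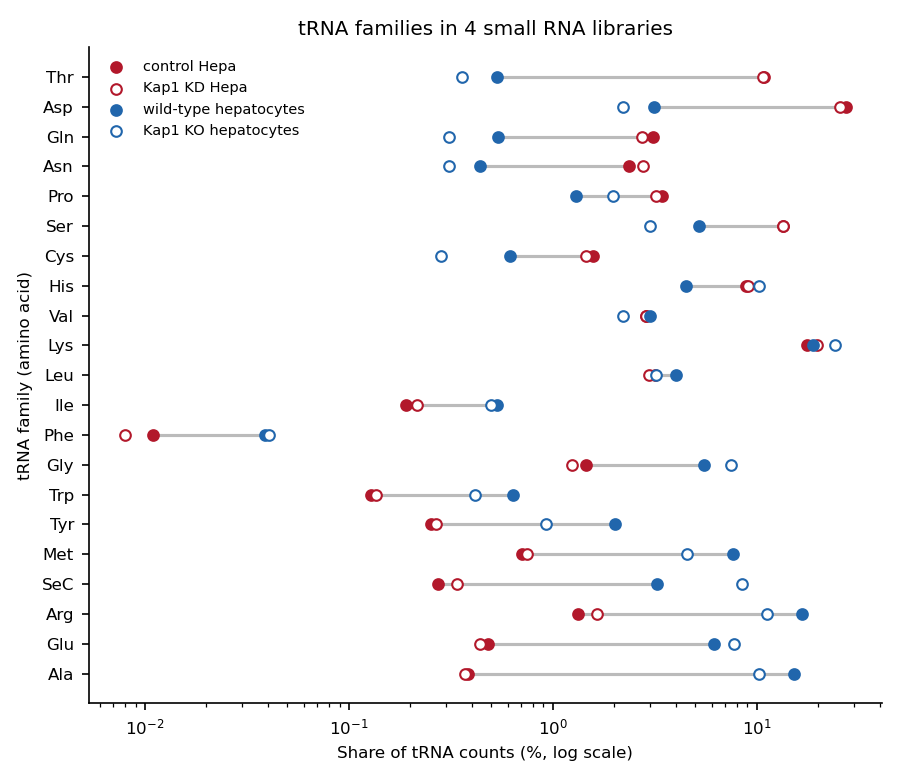
Share of tRNA counts (x axis, percent, log scale) of the 21 tRNA families (y axis) in control Hepa (filled red), Kap1 KD Hepa (open red), wild-type hepatocytes (filled blue) and Kap1 KO hepatocytes (open blue); grey bars join the control and wild-type values. Thr, Asp, Gln and Asn at the top lie to the right in both Hepa libraries and Ala, Glu, Arg and SeC at the bottom lie to the right in both hepatocyte libraries, while the 4 points of Lys lie between 17.7% and 24.1%.

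Thr had the largest ratio of the families higher in Hepa cells, with 115475 counts (10.9%) against 247 (0.530%), or 20.5-fold (log2 4.36, interval 4.18 to 4.55). Asp, the most abundant family in Hepa cells, was 8.70-fold higher (27.4% against 3.14%, log2 3.12, interval 3.05 to 3.20). Gln was 5.77-fold higher (3.10% against 0.536%) and Asn 5.33-fold higher (2.36% against 0.442%). Pro (3.43% against 1.30%), Ser (13.5% against 5.21%) and Cys (1.57% against 0.616%) were between 2.55-fold and 2.65-fold higher. All 7 were also higher in Kap1 KD Hepa cells than in Kap1 KO hepatocytes, with Pro at 0.71 on the log2 scale and the others at 2.15 or more.

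By share in the control pair, Ala was the family with the largest ratio of all. Thr had the larger one with median-of-ratios scaling (log2 6.32 against -3.36) and in the Kap1-depleted pair (4.91 against -4.785). Ala took 7109 counts (15.2%) in hepatocytes and 4056 (0.383%) in Hepa cells, 39.8-fold lower in Hepa cells (log2 -5.31, interval -5.37 to -5.26). Glu was 12.8-fold lower (0.482% against 6.19%), Arg 12.5-fold lower (1.33% against 16.6%) and SeC, the family that carries selenocysteine, 11.9-fold lower (0.273% against 3.24%). Met was 10.8-fold lower (0.706% against 7.65%), Tyr 7.99-fold (0.253% against 2.02%) and Trp 5.00-fold (0.128% against 0.641%). Gly, Phe and Ile were between 2.80-fold and 3.79-fold lower. The Phe value rests on 18 counts in hepatocytes. The suppressor family (Sup), a single gene, had 17 counts and 1 count and was left out of the 21.

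Lys was the most abundant family in hepatocytes and second in Hepa cells, at 19.0% and 17.7% (log2 -0.10). Val (log2 -0.07) and Leu (log2 -0.34) were also within 2-fold. His was 1.96-fold higher in control Hepa cells than in wild-type hepatocytes (8.81% against 4.48%), but the Kap1 KO hepatocytes had 10.3%, above both Hepa libraries. The 3 families with a long variable arm, a loop that most tRNAs lack, together took 16.9% in Hepa cells and 12.5% in hepatocytes (log2 0.44), with Ser at 1.37, Leu at -0.34 and SeC at -3.57.

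Anticodons of 1 family often had different ratios. Of 48 anticodons with at least 100 counts, 14 (29.2%) were at least 2-fold higher in Hepa cells and 29 (60.4%) at least 2-fold lower. In 5 of the 13 families with more than 1 anticodon, the leading anticodon was not the same in the 2 cell types, and each of these 5 kept its leader in the Kap1-depleted library of the same cells. No family had another leader between the 2 Hepa libraries and 1, Thr, had one between the 2 hepatocyte libraries.

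Ser and Val showed this most. The Ser-TGA anticodon made up 60.3% of Ser counts in Hepa cells and 13.3% in hepatocytes, whereas Ser-GCT made up 4.56% and 68.4% (66.5% to 70.2%). Val-AAC made up 93.1% of Val counts in Hepa cells and 28.99% in hepatocytes, and Val-TAC 2.92% and 58.3%. The near-equal Val share of the cell types thus combined a 3.06-fold excess of one anticodon with a 20.95-fold deficit of another.

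In the Leu family, Leu-AAG led in Hepa cells (49.0% against 19.2%) and Leu-TAA in hepatocytes (33.8% against 2.79%). Within Ala, Ala-AGC led in Hepa cells (61.3% against 17.0%) and Ala-TGC in hepatocytes (68.4% against 26.8%). For Arg the leaders were Arg-TCT (37.7% against 15.8%) and Arg-CCT (48.3% against 22.1%). Thr-CGT led in both, but with 98.7% of Thr counts in Hepa cells and 54.3% in hepatocytes (interval 47.8% to 60.6%). Lys-TTT made up 22.01% of Lys in Hepa cells and 4.90% in hepatocytes, and Gln-TTG made up 99.4% and 80.8% of Gln. Families whose anticodon shares differed by under 5 percentage points were Gly, His and Ile.

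By the first base of the anticodon, which pairs with the third base of the codon, tRNAs with G took 41.2% of tRNA counts in Hepa cells and 14.9% in hepatocytes, the Hepa share mostly through Asp and His. Those with C took 31.3% and 50.9%, those with T 19.6% and 26.7%, and those with A 7.90% and 7.36%. The shares of the Kap1-depleted libraries were on the same side for G, C and T (40.0% and 17.1%, 32.2% and 53.1%, 19.8% and 25.3%), and the A group was 7.99% and 4.46%.

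Single tRNA genes accounted for much of these differences. The names of the tables give the chromosome of each gene, and positions and sequences of tRNA genes were not used here. chr13.tRNA981-AspGTC had 267900 counts in Hepa cells, 25.3% of all tRNA, and 288 in hepatocytes (40.9-fold, log2 5.35), with 154893 and 44 in the Kap1-depleted libraries. It made up 92.4% of Asp counts in Hepa cells. In hepatocytes 70.4% of Asp counts belonged to chr10.tRNA856-AspGTC (named after its values were seen), which had 1031 counts there and 829 in Hepa cells, so that its share was lower in Hepa cells (log2 -4.82) within the family that was 8.70-fold higher.

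chr13.tRNA75-ThrCGT had 112922 counts in Hepa cells and 46 in hepatocytes, the largest ratio among tRNA genes higher in Hepa cells (106.9-fold, log2 6.74, interval 6.34 to 7.21), with 68259 and 6 in the Kap1-depleted pair. chr12.tRNA790-LysCTT had 91510 and 232 counts (17.3-fold), and chr10.tRNA1095-SerTGA had 85948 and 322 (11.7-fold). chr2.tRNA1432-HisGTG, at rank 5 in Hepa cells with 84453 counts and rank 8 in hepatocytes with 993, was 3.74-fold higher. chr1.tRNA698-LeuCAG had 7778 counts in Hepa cells and 6 in hepatocytes (log2 5.72, interval 4.71 to 7.28). The genes chr5.tRNA1314-AspGTC and chr1.tRNA707-AspGTC, with 29 and 23 counts in hepatocytes, were 17.1-fold and 15.9-fold higher in Hepa cells.

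In hepatocytes the leading gene was chr16.tRNA267-LysCTT, with 7036 counts (15.1%) against 49418 (4.67%) in Hepa cells, 3.24-fold lower there. Together with chr12.tRNA790-LysCTT it made the Lys family nearly equal in the cell types by opposite differences of the single genes. chr5.tRNA1317-AlaTGC had 3689 counts (7.91%) in hepatocytes and 548 (0.0517%) in Hepa cells, 153-fold lower, and was 51.9% of hepatocyte Ala counts. chr7.tRNA86-SeCTCA, a gene of the selenocysteine tRNA, was at rank 3 in hepatocytes with 1418 counts (3.04%) against 1958 (0.185%), 16.5-fold lower in Hepa cells, and had 5850 counts (8.20%) in the Kap1 KO library. chr15.tRNA913-MetCAT and chr8.tRNA783-MetCAT had 1400 and 1399 counts in hepatocytes and 539 and 480 in Hepa cells, 59.0-fold and 66.2-fold lower.

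The largest ratios in this direction came from genes with few counts in Hepa cells. chr11.tRNA1444-CysGCA had 6 counts in Hepa cells and 120 in hepatocytes (log2 -8.72, interval -10.3 to -7.66), and chrX.tRNA643-LysCTT had 40 and 384 (log2 -7.75). chr13.tRNA70-AlaCGC and chr13.tRNA955-AlaCGC both had 375 counts in hepatocytes and 45 and 49 in Hepa cells (log2 -7.55 and -7.43), and chr13.tRNA983-MetCAT had 147 and 20 (log2 -7.35). For the Cys gene, the family as a whole went the other way, since chr17.tRNA458-CysGCA made up 98.8% of Cys counts in Hepa cells.

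In 11 families, genes at least 2-fold higher and genes at least 2-fold lower in Hepa cells stood side by side, in 8 there were genes of the second kind only and in 1 of the first only. These counts are by share and depend on the scaling, and they stand beside the 64.7% of all tested tRNA genes that were at least 2-fold lower. By share, all 23 Arg genes with enough counts were lower in Hepa cells, from -6.44 to -1.46 on the log2 scale, as were both SeC genes. Median-of-ratios scaling raises every tRNA ratio 3.89-fold. Under it chr13.tRNA985-ArgTCT (2.75-fold lower by share) and chr5.tRNA13-SeCTCA (2.28-fold lower), both named after their values were seen, would be higher. Of 15 Ala genes, 13 were lower by share, among them genes of all 3 anticodons. Met held 17 genes, of which 9 had enough counts, 7 were lower, a share near that of all tRNA genes, and 1, chr3.tRNA792-MetCAT, was higher (5645 and 32 counts, log2 2.94). That gene, named after its value was seen, was 75.5% of Met counts in Hepa cells, and the Met family turned from log2 -3.44 to 1.48 when only the most counted gene of each anticodon was kept, an alternative chosen after the data were seen. By chromosome, genes on chromosome 13, which holds 96 of the 357, took 44.6% of tRNA counts in Hepa cells and 15.9% in hepatocytes.

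Copies limit what a single tRNA gene's count can mean. Among the 83 genes with at least 100 counts in each library, 8 pairs of the same anticodon had counts within 5% of each other in both, for example chr13.tRNA63-LeuAAG and chr13.tRNA62-LeuAAG with 7649 and 7648 counts in Hepa cells and 120 each in hepatocytes. The study's methods, under RNA-seq, give a TopHat setting that keeps 1 alignment per read, which would place a read that matches several copies at 1 of them; whether the small RNA reads were aligned this way was not given in the sources used here. Some genes with near-equal hepatocyte counts fall outside the rule for these 8 pairs. Examples are chr15.tRNA913-MetCAT and chr8.tRNA783-MetCAT (1400 and 1399 counts), and chr13.tRNA70-AlaCGC and chr13.tRNA955-AlaCGC. Values of genes with near-identical copies are therefore uncertain, while sums over an anticodon are less so. Such genes may also not be separate observations in the counts of genes given above.

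The differences between the cell types were also present between the Kap1-depleted libraries, which share no library with the first pair but do share its kits, culture and tables. In that pair 19 of 95 snoRNAs (20%) were at least 2-fold higher in Hepa cells and 46 (48.4%) lower, and 33 of 185 tRNA sequences (17.8%) were higher and 117 (63.2%) lower. Across sequences with enough counts in both pairs, the log2 ratios of the pairs had a rho of 0.96 for 91 snoRNAs and 0.93 for 180 tRNA sequences. All 71 snoRNAs past 2-fold in the first pair had the same direction in the second, as did 145 of 148 tRNA sequences.

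**Figure D5:**
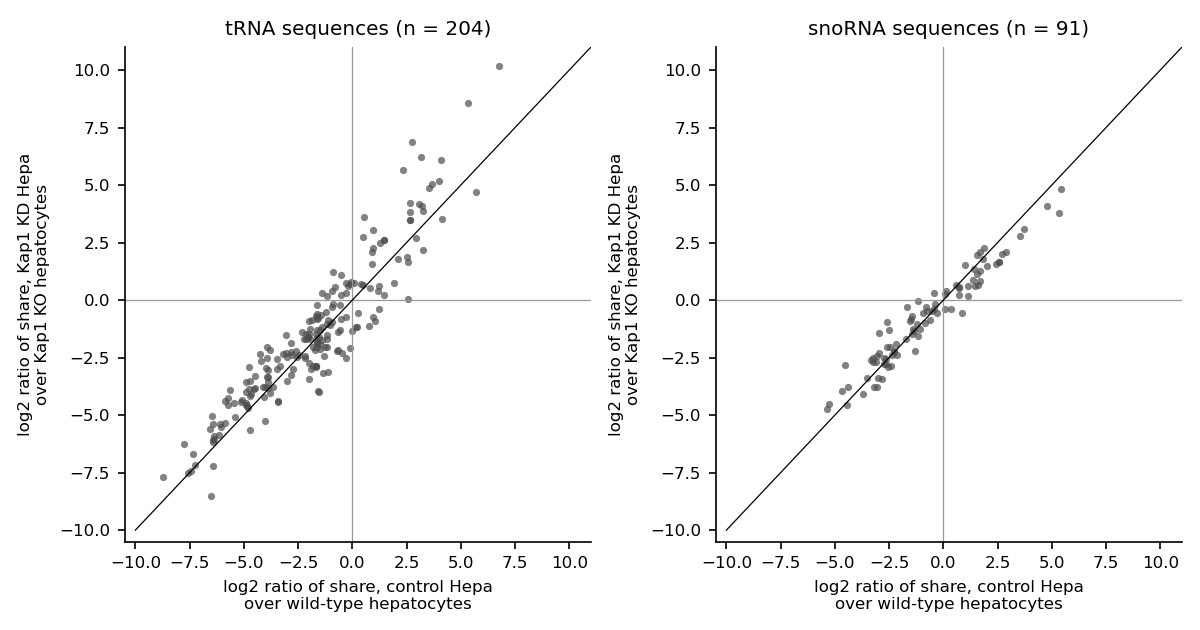
Log2 ratio of the share in control Hepa over wild-type hepatocytes (x axis) and in Kap1 KD Hepa over Kap1 KO hepatocytes (y axis) for 204 tRNA (left) and 91 snoRNA sequences (right); the diagonal marks equal ratios. Points follow the diagonal in both classes, with more scatter for tRNA, where chr13.tRNA75-ThrCGT stands at 6.74 and 10.2.

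Differences between libraries of the same cells were smaller but not small in hepatocytes. Between control and Kap1 KD Hepa cells, 8.89% of 90 snoRNAs and 2.88% of 208 tRNA sequences were past 2-fold in either direction. Between wild-type and Kap1 KO hepatocytes, 26.3% of 95 snoRNAs and 25.2% of 131 tRNA sequences were. The median size of the log2 ratio of tRNA sequences was 2.21 between the cell types (204 sequences), 0.34 within Hepa cells (208) and 0.75 within hepatocytes (131). That of snoRNAs was 1.87 (91 snoRNAs), 0.37 (90) and 0.72 (95). The count minimum was applied to each pair, so these sets differ. A tRNA sequence with few hepatocyte counts could enter the value between the cell types but not that within hepatocytes. Medians over a common set were not computed. For 78 of 91 snoRNAs (85.7%), 30 higher and 48 lower in Hepa cells, and for 162 of 180 tRNA sequences (90%), 36 higher and 126 lower, both Hepa libraries lay beyond both hepatocyte libraries.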

How the data were processed

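Small RNA libraries of Hepa 1-6 cells and primary mouse hepatocytes were analysed from the deposited tables, in which the authors gave counts per tRNA or snoRNA sequence with flanks, beside a signal that proved to be the count over a constant of each library, and that signal per length. The deposited counts were used and the signal columns only to learn how they were made. Per the submitters' processing notes, TopHat2 2.0.11, HTSeq 0.6.1 and mm9 were used. RNA came from Trizol and miRNeasy extraction and TruSeq libraries; other small RNA steps were not given in the sources used here. Each hepatocyte library had identical doubled columns and was counted once. The other 22 and 14 tRNA rows, each in 1 table only (at most 15 counts), stayed in the totals. Counts of 357 tRNA and 96 snoRNA sequences were joined by identifier. Shares used all counts of a class. Intervals are Clopper-Pearson, for ratios conditional on the summed count; reads carry no molecular identifiers, so they cover counting error only. With 1 library per group no test was run. TMM factors came from edgeR 4.0.16 in R 4.3.3; other steps used Python 3.11.15, numpy 2.4.6, pandas 2.3.3 and scipy 1.17.1, and were tested on simulated data. Named sequences were the top 5 per class and library and the 6 largest ratios each way with at least 100 counts in 1 library; families, anticodons, first bases and snoRNA lists were also fixed. Members and lists were chosen with earlier results of these data known. Host genes came from the mm9 annotation and, by name only, from RefSeq GRCm38.p6, where all 96 snoRNAs were found. Alternatives covered the count minimum, added count, scaling, length, summing and the Kap1-depleted libraries. The mRNA samples are not used here. One host gene of snoRNAs is not reported here.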

Additional observations from a re-analysis of the deposited data

Results flagged for a closer look

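A few RNAs had opposite directions in the 2 pairs, that is, a log2 ratio of Hepa cells over hepatocytes above 0 in one pair and below 0 in the other. The difference was not tested, since each value rests on 1 library per cell type. Among tRNA families and anticodons with at least 100 counts in each pair these were the His family (0.97 in the control pair and -0.19 in the Kap1-depleted pair), with its main anticodon His-GTG (1.04 and -0.17), Pro-AGG (0.72 and -0.50) and the Val family (-0.069 and 0.37). The His shift lay with the hepatocytes, where His took 4.48% in wild-type and 10.3% in Kap1 KO cells, against 8.81% and 9.05% in Hepa cells. Of 180 single tRNA sequences, 164 had the same direction in both pairs. Of those past 2-fold in the control pair, the opposite ones, named after their values were seen, were chr14.tRNA192-ProTGG (1.24 and -0.38), chr13.tRNA958-TyrGTA (-1.39 and 0.30) and chr10.tRNA1282-TrpCCA (-1.15 and 0.19). Among snoRNAs they were Snord68 (0.85 and -0.57), Snord1a (0.34 and -0.40), Snord49b (0.068 and -0.40) and Snord19 (-0.44 and 0.32). None of the snoRNAs was past 2-fold in either pair.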

How the results depend on the processing

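No paired analysis was possible because each group had 1 library and no test was run. The counts of tRNA sequences past 2-fold, 33 higher and 132 lower in Hepa cells, were 73 and 67 with TMM, 72 and 69 with median-of-ratios and 57 and 77 with the total over both classes; the lower count was 240 with no minimum and 53 with a minimum of 500. The snoRNA counts, 24 and 47, stayed within 1.5 times under every alternative run (19 to 34 higher and 32 to 51 lower). Spearman's correlation of the ranks for tRNA, 0.23, was 0.72 with no minimum, 0.40 summed per anticodon and 0.0795 in the Kap1-depleted pair. That for snoRNA, 0.79, was 0.82 with no minimum and 0.89 in that pair. The tRNA share, 4.03% in Hepa cells and 1.54% in hepatocytes, was 6.61% and 2.56% without the top sequence of each library, 4.36% and 1.56% per length, and 2.24% and 0.648% in the Kap1-depleted libraries. The box C/D share, 99.18% and 97.52%, was 98.6% and 95.8%, 99.5% and 98.6%, and 99.4% and 99.0% in the same order.

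Of 64 log2 ratios of families, named sequences and lists, 7 changed sign after being past 2-fold. With median-of-ratios scaling these were Ile (0.47), Phe (0.11), Gly (0.038), chr16.tRNA267-LysCTT (0.27) and Snord22, as processing and as Snhg1 snoRNA (0.016). With the most counted gene per anticodon it was Met (1.48). No such value changed sign in the Kap1-depleted pair or without the top sequence of each library. Depth limits the hepatocyte tRNA values most, where 46617 counts were spread over 357 sequences.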
